A study of Mus musculus with 15 samples.

Results

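The genes described here are 37 ribosome biogenesis and nucleolar genes, picked by symbol out of the 20696 genes of a mouse RNA sequencing table. All 37 were found, and all 37 passed the filter on low values (a mean of at least 1 FPKM, read fragments scaled to gene length and library depth), as did 11345 genes in all. RNA came from hematopoietic stem cells (HSCs), the bone marrow cells that renew themselves and give rise to all blood lineages, purified by flow sorting. The 15 libraries formed 3 groups of 5: controls aged 3 months (young controls), controls aged 18 months (aged controls), and mice aged 18 months labelled Thbs1 knockout (labelled knockout libraries). Thbs1 encodes the matrix glycoprotein thrombospondin 1. The labels give neither the strain nor the design of the Thbs1 allele, nor whether the 5 samples of a group came from different mice. The p-values therefore reflect only how much these samples varied, which may be technical. The study asked what changes in HSCs with age and what differs between aged mice with and without the knockout label.

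Ribosome biogenesis begins in the nucleolus, where RNA polymerase I transcribes the long precursor of the ribosomal RNAs. Small nucleolar RNAs (snoRNAs) guide its chemical modification inside protein complexes of the box C/D and box H/ACA classes, while large assemblies of processing factors cut it and fold it into the small and large ribosomal subunits. HSCs are known for a low rate of protein synthesis, and many genes of the pathway are targets of Myc family transcription factors. The 37 genes were set in 6 role groups: 2 subunits of RNA polymerase I, 3 box C/D proteins, 4 box H/ACA proteins, 6 nucleolar chaperones, helicases and regulators, 11 small subunit factors and 11 large subunit factors.

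Depth and the state of the libraries bear on all comparisons. The depth recovered from the values was 16.65 M to 28.62 M reads in genes per library (M, mega). All 12 HSC markers examined reached a mean of at least 1 FPKM in every group. Thbs1 was not lower under the knockout label, with 1.69 to 17.89 FPKM there and 0.01 to 8.75 among aged controls, so directions below belong to the labelled knockout libraries and not to a measured loss of Thbs1. Labelled knockout replicates 2 and 5 stood apart: 2.16% and 0.682% of their reads lay in annotated rRNA genes, against 0.157% to 0.370% in the other 13 libraries, and their long genes lay lower relative to short ones. Library names in the table carry a sex, and the sample descriptions pair those names with titles in another way for 10 of the 15 columns. Groups were taken from the titles. Grouped by the descriptions instead, 0 of the 11345 tested genes passed with age or between the aged groups and 15 passed between labelled knockout and young libraries, so every group result below rests on the titles.

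As a level, the members spanned a wide range: Nop10 averaged 289 FPKM over all libraries and Utp20 averaged 1.67 FPKM. The mean log2(FPKM + 1) over the 37 genes was 4.61 ± 0.12 in young controls, 4.44 ± 0.21 in aged controls and 4.62 ± 0.12 in labelled knockout libraries (SD, n = 5 each). Aged control 2 was lowest at 4.17 and aged control 5 was highest of its group at 4.73, so the aged controls reached across nearly the whole range of the series. In bulk RNA, fewer cells of a type and less RNA per cell cannot be told apart.

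**Figure D1:**
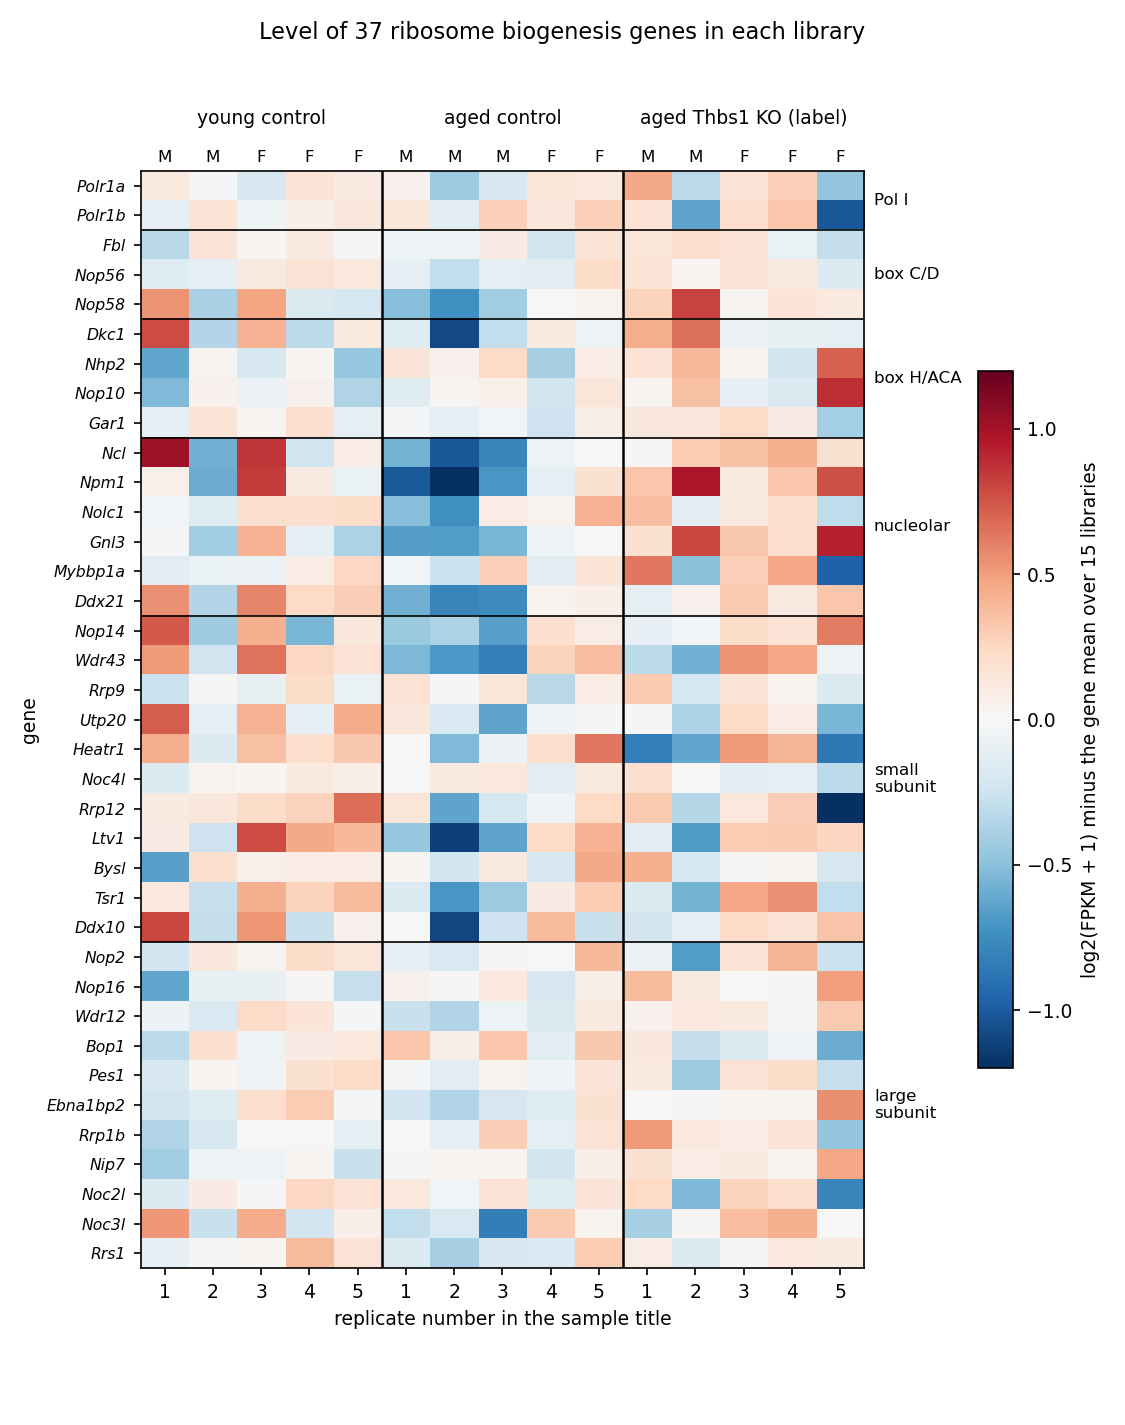
Level of each of the 37 genes (rows, in 6 role groups) in each of the 15 libraries (columns, numbered as in the sample titles, M and F for the sex in the library name), as log2(FPKM + 1) minus the gene's mean over all libraries; the colours are capped at the ends of the scale. The male aged controls 1 to 3 are low for Ncl, Npm1, Gnl3, Ddx21, Wdr43 and Ltv1, and labelled knockout replicates 2 and 5 differ from the other 3 of their group in opposite directions for different genes.

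The comparison of aged with young controls asked how these genes differ with age. None of the 37 members passed the limma test at an adjusted p of 0.05, a threshold that 4.42% of all tested genes passed (3.18% higher and 1.23% lower with age). At an unadjusted p under 0.05 stood 5 of the 37 members and 2264 of the 11345 tested genes, and limma's voom on recovered read numbers also called 0 members. The log2 change of 27 members was below 0, with a median of -0.17, beside a median of -0.02 over all tested genes. The members' median ran from -0.24 to -0.07 when 1 library was left out, and was -0.07 without aged control 2, -0.10 without young control 4. Library names gave 3 males and 2 females among aged controls, and 2 males and 3 females among young controls. With sex also in the fit the members' median was -0.11. No member had groups that did not overlap, which 7.16% of all tested genes had.

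Ddx21, an RNA helicase of the nucleolus that acts in both polymerase I transcription and rRNA processing, came closest to the threshold. Young controls 1 to 5 had 12.04, 5.98, 12.32, 9.5 and 9.95 FPKM, and aged controls 1 to 5 had 4.97, 4.15, 4.27, 8.16 and 8.41. The 3 male aged controls were the lowest, while young control 2, also male, lay within the range of the aged group. The log2 change was -0.66 (SE 0.21, limma adjusted p = 0.0784). It passed when young control 2 was left out (-0.82, limma adjusted p = 0.0255), when aged control 4 was (-0.77, adjusted p = 0.0435) or when aged control 5 was (-0.78, adjusted p = 0.0268).

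Ltv1, which takes part in late assembly of the small subunit, had 16.4, 12.67, 27.06, 21.36 and 20.37 FPKM in young controls and 10.86, 6.49, 9.5, 18.22 and 20.68 in aged controls. The 3 male aged libraries were below every young library, and the 2 female ones were among the young values. The log2 change was -0.61 (SE 0.27, limma adjusted p = 0.224). Ncl (nucleolin), a multifunctional rRNA-binding protein, stood at -0.72 (SE 0.27, adjusted p = 0.151) and Npm1 (nucleophosmin), a histone and ribosome chaperone, at -0.65 (SE 0.27, adjusted p = 0.196), neither of which passed. Wdr43, a component of the small subunit processome, stood at -0.55 (SE 0.26, adjusted p = 0.245).

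By role, all 6 nucleolar chaperones, helicases and regulators lay below 0 with age (median -0.47), as did 8 of 11 small subunit factors (median -0.37) and all 3 box C/D proteins (median -0.11). Large subunit factors were mixed, with 7 of 11 below 0 and a median of -0.03. The highest values belonged to the pseudouridylation protein Nhp2 (0.27, SE 0.18) and to the large subunit factor Nop16 (0.22, SE 0.14). Both polymerase I subunits lay within 1 SE of 0: Polr1a, the catalytic subunit, stood at -0.10 (SE 0.18) and Polr1b at 0.10 (SE 0.21). The box H/ACA group was divided, with Dkc1 at -0.42 (SE 0.25) and Nop10 at 0.14 (SE 0.19). Nearest to 0 were Mybbp1a, Fbl, Noc2l, Nop2, Noc4l, Pes1, Rrp9 and Bysl, from -0.04 to 0.08.

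Within males the members' median difference with age was -0.10, and within females it was -0.05, with 14 of 37 members above 0 in each. Proliferation markers lay lower with age beside these genes: 25 of 25 were below 0, with a median of -0.58, and the mitotic kinase gene Cdk1 (-0.66, limma adjusted p = 0.0434) fell. The mean log2 level of the proliferation markers was 4.99 in aged control 5, the aged control with the highest members' mean, against 3.96 to 4.16 in the other 4. Aged control 4, with the lowest proliferation mean of its group (3.96), had the next highest members' mean (4.515). Markers of multipotent and lymphoid-primed progenitors (4 of 5 in the table) summed to 52.92 to 68.5 FPKM in young controls and to 20.87 to 33.5 FPKM in aged ones. Those of neutrophils and myeloid progenitors (9 of 10) summed to 91.78 to 143.5 and 194.7 to 381.1, and HSC markers (12 of 12) to 862.6 to 915.6 and 1021 to 1164. None of these 3 sets overlapped between the groups. Single HSC markers did not all follow their sum. Ly6a averaged 154.9 FPKM in young and 283.9 in aged controls, and Procr 53.41 and 111.2. Kit (141.7 and 108.5), Hlf (38.17 and 28.79), Mecom, Tek and Ctnnal1 averaged lower in aged controls, opposite to the sum. The part of these markers in the members' values was not tested. Other genes of ribosome biogenesis, from 6 lists, were examined too, with 0 of 144 called, a median of -0.14 and 21 at an unadjusted p under 0.05.

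**Figure D2:**
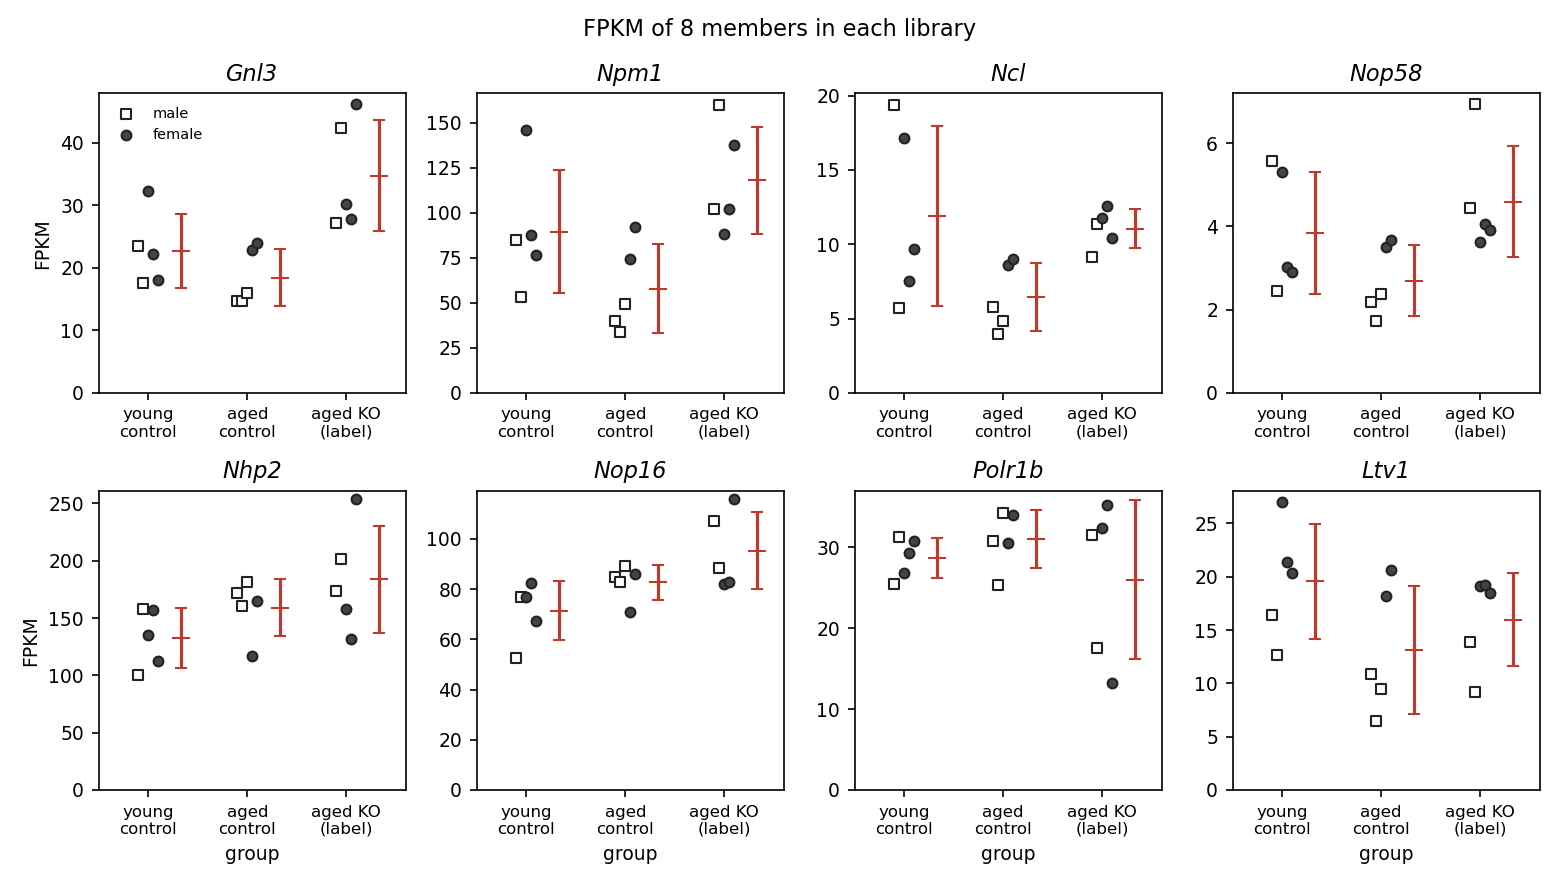
FPKM of 8 members in each library (points, squares for male and circles for female library names) by group, with the group mean and SD (red bar, n = 5) to the right of the points. The 5 labelled knockout libraries lie above all 5 aged controls for Gnl3 and Ncl, and for Polr1b 2 of them lie below all other libraries.

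The labelled knockout libraries were compared with the aged controls to ask what the knockout label adds at the same age. Gnl3 rose, alone among the 37 members, while 1.55% of all tested genes were called, 0.361% higher and 1.19% lower. The log2 change of 27 members was above 0, with a median of 0.18, beside -0.03 over all tested genes, of which 45.4% lay above 0. The members' median was 0.10 without aged control 2, the lowest value when 1 library was left out, and 0.22 at the highest. Labelled knockout libraries were 2 male and 3 female, against 3 male and 2 female aged controls. With sex also in the fit the members' median was 0.12. Gnl3 and Ncl were higher in all 5 labelled knockout libraries than in all 5 aged controls, a separation in either direction that 2.34% of all tested genes had.

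Gnl3 encodes nucleostemin, a nucleolar GTP-binding protein abundant in stem and progenitor cells (ENSMUSG00000042354, GRCm38 chr14:31012433-31019152, minus strand). GENCODE M21 places 3 snoRNA genes inside Gnl3 on the same strand, and 3 inside Ncl (ENSMUSG00000026234, chr1:86344719-86359400, minus strand). The 5 of these 6 that end in a box D are shown because Gnl3 and Ncl are the 2 members whose aged groups did not overlap. Each is written 5′ to 3′ on its own strand from the GENCODE transcripts, with capitals for box C (TGATGA within the first 20 bases) and box D (CTGA within the last 20), the motifs that box C/D proteins bind. Snord19 has no exact box C match there, so only its box D is in capitals.
Snord69 (Gnl3, chr14:31014287-31014366): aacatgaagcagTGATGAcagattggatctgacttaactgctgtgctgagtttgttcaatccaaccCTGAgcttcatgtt
Gm24916 (Gnl3, chr14:31015148-31015226): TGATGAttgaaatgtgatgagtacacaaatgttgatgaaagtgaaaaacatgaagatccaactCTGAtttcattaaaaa
Snord19 (Gnl3, chr14:31016206-31016281): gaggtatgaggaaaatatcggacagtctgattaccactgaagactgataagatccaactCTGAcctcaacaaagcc
Gm24148 (Ncl, chr1:86352008-86352087): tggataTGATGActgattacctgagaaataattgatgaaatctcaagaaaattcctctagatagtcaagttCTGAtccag
Snord82 (Ncl, chr1:86356261-86356330): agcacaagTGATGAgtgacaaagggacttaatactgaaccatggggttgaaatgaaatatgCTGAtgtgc

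Gnl3 had 14.71, 14.66, 16, 22.81 and 23.95 FPKM in aged controls 1 to 5 and 27.2, 42.3, 30.19, 27.79 and 46.27 in labelled knockout libraries 1 to 5. Replicates 2 and 5 of the latter were the highest. The group means were 18.4 ± 4.57 and 34.75 ± 8.89 FPKM (SD, n = 5 each), a log2 change of 0.88 (SE 0.20, limma adjusted p = 0.0288). The difference was 1.12 within males and 0.52 within females. In a limma fit that also held sex it was 0.82 (adjusted p = 0.0257), and grouped by the descriptions it was 0.10 (adjusted p = 0.99). Without replicates 2 and 5 together the log2 change was 0.63 and the call was lost (limma adjusted p = 0.157), as it was without replicate 2 (adjusted p = 0.0812), replicate 5 (adjusted p = 0.0561), aged control 1 (adjusted p = 0.0985), aged control 2 (adjusted p = 0.0923) or aged control 3 (adjusted p = 0.0852).

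Npm1 showed the largest log2 change of the members, 1.08 (SE 0.27), and did not pass (limma adjusted p = 0.0538). Aged controls had 39.71, 33.83, 49.48, 74.47 and 92.07 FPKM and labelled knockout libraries 102.32, 160.02, 88.03, 102.4 and 137.71, so the groups overlapped only at labelled knockout 3 and aged control 5. The difference was 1.63 within males and 0.37 within females. Npm1 was called in the limma fit that held sex (0.99, adjusted p = 0.0463). Npm1 has near-identical processed copies in the genome, so its level is uncertain. The treatment of reads shared with them is not given in the sources used here.

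Ncl had 5.78, 3.95, 4.83, 8.62 and 9.03 FPKM in aged controls and 9.12, 11.37, 11.78, 12.57 and 10.39 in labelled knockout libraries. The lowest labelled knockout library was only just above the highest aged control. The log2 change of 0.74 (SE 0.27) did not pass (limma adjusted p = 0.219), and it was 0.75 without replicates 2 and 5. In young controls Ncl ran from 5.74 to 19.37 FPKM, across both aged groups. Ddx21 stood at 0.54 (SE 0.21, adjusted p = 0.256), 0.67 within males and 0.19 within females. The other 2 genes of this role group were Nolc1, a chaperone of snoRNP proteins, at 0.19 (SE 0.19), and the Myb-binding protein gene Mybbp1a at -0.02 (SE 0.24), whose libraries 2 and 5 had 59.39 and 42.43 FPKM against 102.92 to 130.9 in the other 3.

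The snoRNP proteins all lay above 0. Nop58, a scaffold of box C/D particles, had 2.18, 1.72, 2.38, 3.51 and 3.67 FPKM in aged controls and 4.43, 6.93, 3.63, 4.06 and 3.91 in labelled knockout libraries. Only labelled knockout 3 fell among the aged controls, and replicate 2 was highest. The log2 change was 0.60 (SE 0.22, limma adjusted p = 0.218). Its partner Nop56 stood at 0.15 (SE 0.12) and the methyltransferase gene Fbl at 0.05 (SE 0.13). Among the box H/ACA proteins, Dkc1, the pseudouridine synthase, stood at 0.46 (SE 0.25), Nop10 at 0.23 (SE 0.19), Nhp2 at 0.19 (SE 0.18) and Gar1 at 0.11 (SE 0.13), none called.

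Polr1b, the second largest polymerase I subunit, showed how far replicates 2 and 5 could carry a value. It had 30.77, 25.38, 34.21, 30.56 and 34.05 FPKM in aged controls and 31.56, 17.59, 32.43, 35.18 and 13.24 in labelled knockout libraries. Replicates 2 and 5 were the lowest of all 15 libraries, libraries 1 and 3 were within the aged range, and library 4 was just above it. The log2 change was -0.33 (SE 0.21, limma adjusted p = 0.529) with them and 0.10 without them. Polr1a stood at 0.08 (SE 0.18).

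Subunit assembly factors were split. Of the 11 small subunit factors, 7 lay above 0 with a median of 0.03, from the U3 particle partner Nop14 (0.41, SE 0.24) down to Heatr1 (-0.32, SE 0.27), which had 4.07, 4.81 and 3.97 FPKM in labelled knockout libraries 1, 2 and 5 and 11.8 and 10.88 in libraries 3 and 4. Ltv1 and the helicase gene Ddx10 stood at 0.33, Wdr43 at 0.30 and Tsr1 at 0.18, and Rrp9, Utp20, Bysl, Rrp12 and Noc4l lay from -0.12 to 0.03. Of the 11 large subunit factors, 7 lay above 0 with a median of 0.16, led by Ebna1bp2 (0.28, SE 0.15), Wdr12 (0.27, SE 0.13) and Noc3l (0.27, SE 0.23). Nip7, Nop16, Rrs1 and Rrp1b followed at 0.20, 0.19, 0.16 and 0.03, and the methyltransferase gene Nop2 and Noc2l stood at -0.11 and -0.18. Wdr12, Bop1 and Pes1 form one complex, yet their values were 0.27, -0.38 (SE 0.15) and -0.04 (SE 0.14), and none was called (limma adjusted p = 0.385, 0.271 and 0.937). Bop1 had 76.42, 63.83, 76.38, 54.85 and 76.07 FPKM in aged controls and 66.79, 49.35, 53.72, 58.43 and 39.7 in labelled knockout libraries, so its groups overlapped.

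Counts above 0 differed by sex and by library. Within males 30 of 37 members lay above 0 (median 0.22), and within females 19 of 37 (median 0.00). No member's difference between the sexes passed an interaction test in limma in any of the 3 group comparisons: of 111 such tests, 5 had an unadjusted p under 0.05 and the smallest adjusted p was 0.559. Without labelled knockout replicates 2 and 5, 32 of 37 members lay above 0, the median was 0.23 and 0 were called. In the fit with all libraries, proliferation markers lay below 0 in 18 of 25 cases (median -0.147), with none called. Summed HSC markers (12 of 12 in the table) also separated the aged groups, at 1021 to 1164 FPKM in aged controls and 757.9 to 972.2 in labelled knockout libraries. So did T and NK cell markers (6 of 8), at 73.05 to 140.1 and 34.67 to 68.11. Megakaryocyte markers (6 of 6) overlapped, at 283.7 to 1953 and 167.8 to 343.1. No marker of these 3 sets was at 0 in all 5 libraries of either group. Of the T and NK cell markers, however, only 3 reached a mean of 1 FPKM in each aged group. Cd3d averaged 0.058 FPKM in aged controls and 0.148 in labelled knockout libraries, opposite to the sum, and had a lowest value of 0 in both. Among the HSC markers, Ly6a averaged 283.9 and 136.7 FPKM, while Hlf (28.79 and 32.91) and Ctnnal1 (4.268 and 4.488) went opposite to their sum. The part of these markers in the members' values was not tested.

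**Figure D3:**
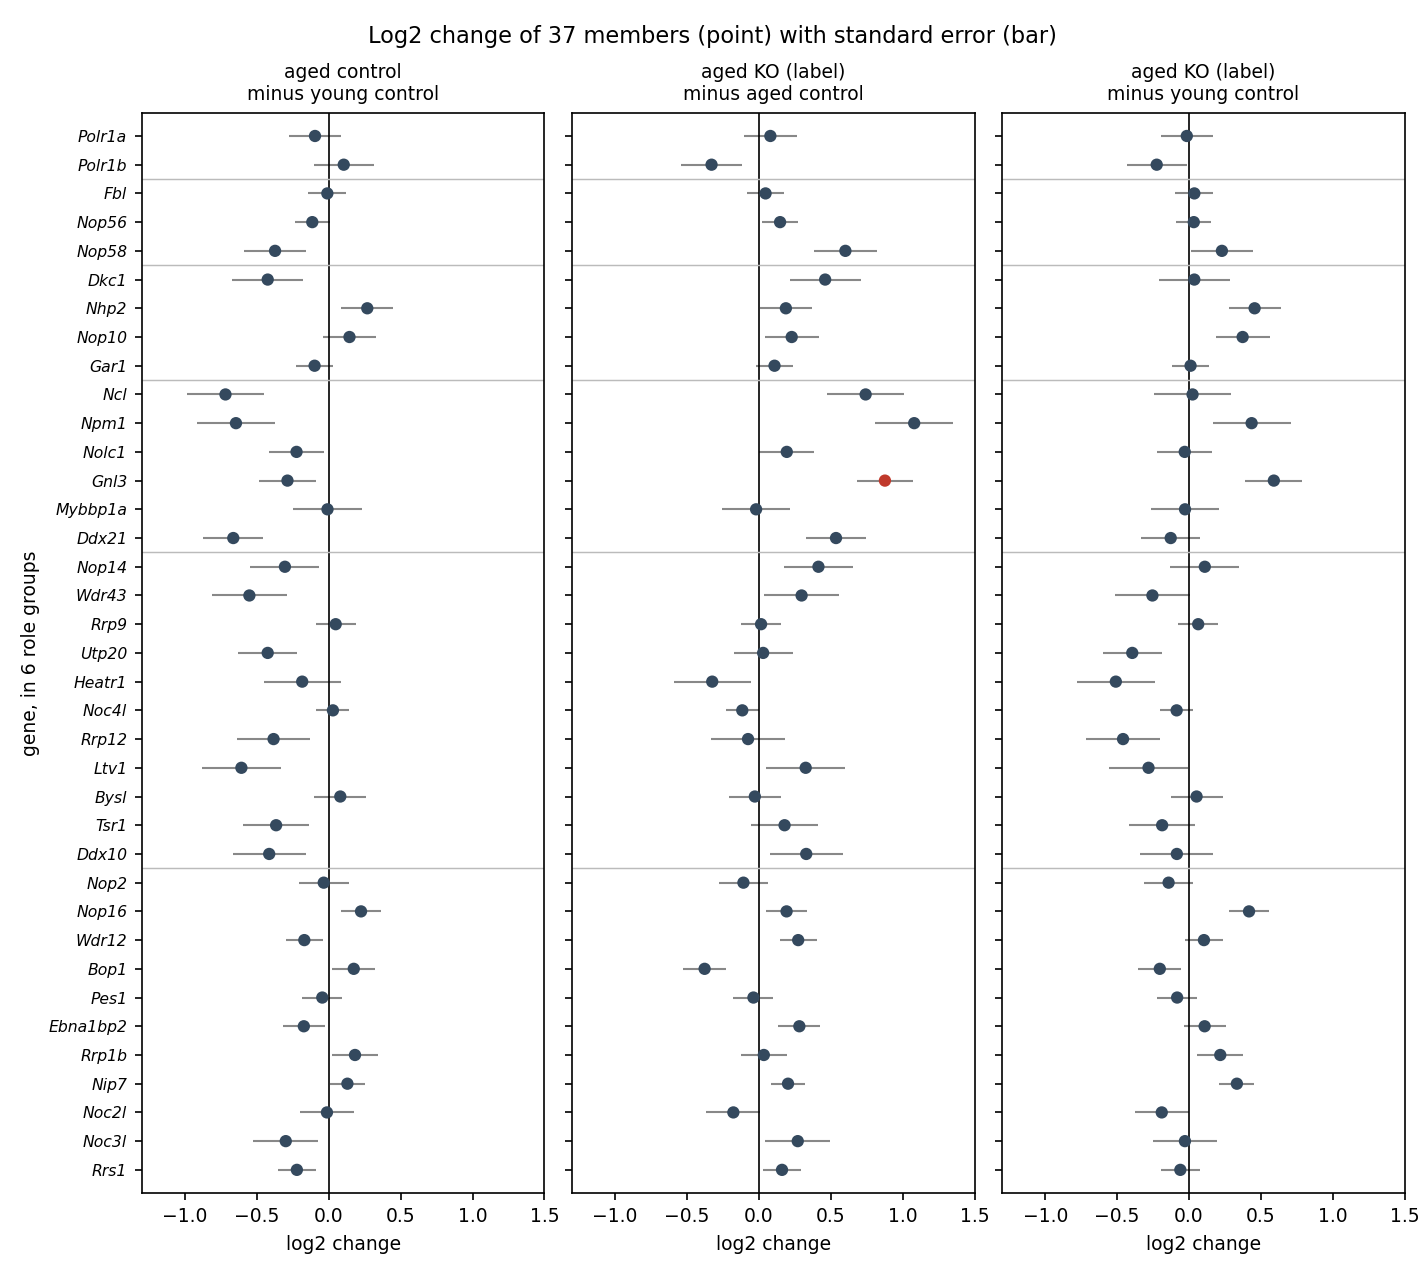
Log2 change (points) and standard error (bars) of the 37 members in 3 comparisons of groups, in 6 role groups separated by grey lines; the red point passed the limma test. Gnl3 is the only red point, at 0.88 in the comparison of labelled knockout libraries with aged controls.

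Other genes of the pathway were examined beside the members. Noncoding snoRNA host genes, whose spliced RNA is not translated and whose introns carry snoRNAs, lay above 0 in 11 of 11 cases in labelled knockout libraries against aged controls (median 0.67), and 2 of them rose. Snhg1 had 7.07, 8.71, 4.22, 8.92 and 11.19 FPKM in aged controls and 12.46, 16.08, 14.08, 14.64 and 29.8 in labelled knockout libraries, with no overlap (log2 change 1.02, SE 0.23, limma adjusted p = 0.0261). Snhg15 had 34.98, 42.97, 25.12, 46.49 and 55.99 FPKM against 60.08, 67.34, 66.06, 64.42 and 120.26, again with no overlap (0.86, SE 0.20, limma adjusted p = 0.0363). In both genes labelled knockout 5 was by far the highest. Without replicates 2 and 5 the host genes' median was 0.40, 9 of 11 lay above 0 and none was called. The 5 other lists (polymerase I machinery, snoRNP assembly, small subunit, large subunit and exosome genes) had 0 called members and medians of 0.04 to 0.15.

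The 7 members that hold snoRNA genes (Dkc1, Gnl3, Ncl, Nop56, Nop58, Tsr1 and Wdr43) contain 21 in all. They make up 18.9% of the 37 members, beside 1.88% of tested protein-coding genes (189 of 10053). All 7 lay above 0 in labelled knockout libraries against aged controls (median 0.46) and all 7 below 0 with age (median -0.37), whereas the 30 other members had medians of 0.09 and -0.07. With the GC and length trend removed the age medians were -0.19 for the 7 and -0.11 for the 30, and the medians between the aged groups were 0.43 and 0.17. Without replicates 2 and 5 the latter were 0.48 and 0.19. Between the aged groups, the 7 ran from 0.07 (Tsr1) to 1.12 (Gnl3) within males. Within females they ran from -0.11 (Dkc1) to 0.52 (Gnl3), with Nop56, Wdr43, Tsr1 and Nop58 from -0.01 to 0.08. The split into the 7 and the 30 was chosen after the values were seen and carries no test. Among the 182 other tested protein-coding genes that hold a snoRNA, 107 lay above 0 in the first comparison, with a median of 0.05, and 61 in the second, with a median of -0.09.

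Mycn, which encodes a Myc family activator of ribosome biogenesis genes, differed in the opposite direction to most members with age and between the aged groups. Its ranges were 74.43 to 94.53 FPKM (young), 131.94 to 166.55 FPKM (aged) and 45.3 to 62.18 FPKM (labelled knockout), and no 2 groups overlapped. It rose with age (log2 change 0.81, SE 0.12, limma adjusted p = 0.000361) and fell in labelled knockout libraries against aged controls (-1.45, SE 0.12, limma adjusted p = 9.86e-07) and against young controls (-0.65, adjusted p = 0.00732). Myc itself stood at 0.02 with age, 0.66 (SE 0.19, limma adjusted p = 0.0865) against aged controls and 0.69 (adjusted p = 0.0715) against young controls, none of which passed.

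Against young controls, the labelled knockout libraries differed in both age and label. None of the 37 members was called, beside 1.63% of all tested genes (1.01% higher and 0.617% lower), and 0 were called by voom. At an unadjusted limma p under 0.05 stood 4 of the 37 members and 2401 of the 11345 tested genes. A total of 18 members lay above 0, and the median was -0.02. The median turned to 0.03 after quantile normalization and 0.00 after median-of-ratios scaling, and without labelled knockout replicates 2 and 5 it was 0.10 with 26 members above 0. This comparison shares its libraries with the preceding 2, so its values are given only side by side with them. Gnl3 stood at 0.59 (SE 0.20, limma adjusted p = 0.124), after -0.29 with age and 0.88 with the label.

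Nhp2 had 99.97, 157.93, 135.06, 157.32 and 112.57 FPKM in young controls, 172.02, 160.15, 181.45, 116.98 and 164.65 in aged controls, and 173.73, 201.94, 158, 131.77 and 253.58 in labelled knockout libraries. Its group means rank in that order, but neighbours in the order overlapped. The log2 change from young controls was 0.46 (SE 0.18, limma adjusted p = 0.174). Nop16, a large subunit factor, stood at 0.42 (SE 0.14, adjusted p = 0.124), with 52.75, 77.04, 76.8, 82.61 and 67.24 FPKM in young controls, a range of 70.93 to 89.23 among aged controls, and 107.16, 88.57, 82.18, 82.78 and 116.07 in labelled knockout libraries. Nip7, which acts in large subunit maturation, was the only member without overlap, at 32.93 to 45.53 FPKM in young controls and 45.75 to 61.71 in labelled knockout libraries, a separation that 4.5% of all tested genes had; its log2 change was 0.33 (SE 0.12, adjusted p = 0.147).

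At the other end were Heatr1 (-0.51, SE 0.27), Rrp12 (-0.46, SE 0.25) and Utp20 (-0.40, SE 0.21), all small subunit factors and none called. For Rrp12 the young controls spanned 15.75 to 23.78 FPKM, with 18.44, 11.28, 16.01, 18.19 and 5.38 in labelled knockout libraries 1 to 5. The noncoding snoRNA host genes again lay above 0 in 11 of 11 cases (median 0.65) with none called, and in 10 of 11 without replicates 2 and 5 (median 0.27). Proliferation markers lay below 0 in 25 of 25 cases (median -0.70), of which Pcna (-0.85, limma adjusted p = 0.0107), Rrm2 (-0.94, adjusted p = 0.0404) and Top2a (-0.97, adjusted p = 0.0451) fell. Summed markers of multipotent progenitors, of neutrophils and myeloid progenitors and of megakaryocytes did not overlap between these groups either, at 21.48 to 49.27, 160.5 to 383.6 and 167.8 to 343.1 FPKM in labelled knockout libraries against 52.92 to 68.5, 91.78 to 143.5 and 381.8 to 492.1. Single markers did not all follow the sums. Pf4, of the megakaryocyte set, did not overlap (51.65 to 184.7 against 192.4 to 288.8), but Flt3, of the multipotent set, did (2.33 to 10.75 against 8.57 to 11.02). Of the 9 neutrophil and myeloid markers, 4 reached a mean of 1 FPKM in labelled knockout libraries. Elane averaged 0.84 FPKM there and 1.09 in young controls, opposite to its sum. The part of these sets in the members' values was not tested.

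**Figure D4:**
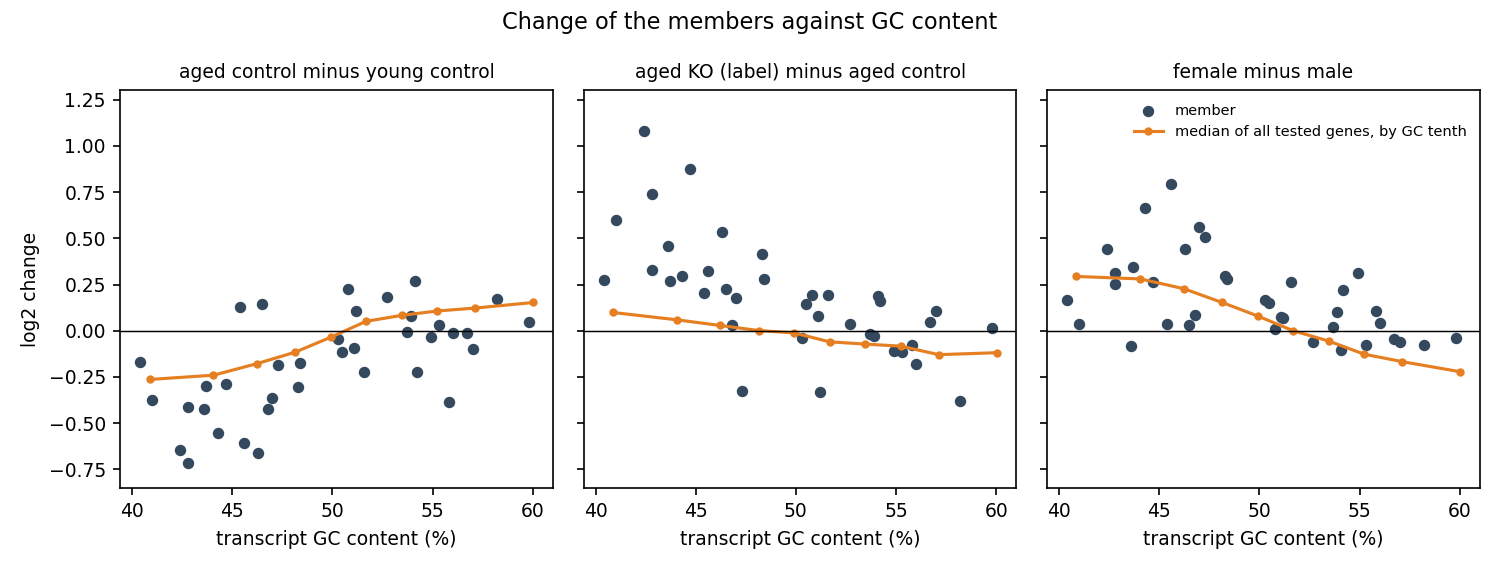
Log2 change of each member (points) against the GC content of its longest coding transcript, with the median of all tested genes in successive bins of GC content (line), for 3 comparisons. The medians of tested genes in bins of low GC content lay below 0 with age and were higher in females. The 19 members of lower GC content had a median of 0.30 in the middle panel, above the line.

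The differences followed GC content in part. Taking the members' median GC content of 50.3% as the split, the 19 at or below it had a median log2 change of -0.37 with age and 0.30 in labelled knockout libraries against aged controls, and the 18 above it had medians of -0.01 and 0.02. The 0.02 rested on labelled knockout replicates 2 and 5: without them the 18 had a median of 0.17, with 15 above 0, and the 19 had 0.34. The medians of all tested genes were ordered the same way at this split, at -0.18 and 0.10 with age and 0.04 and -0.09 in the second comparison. After the trend on GC content and exonic length was removed from every library, the members' medians were -0.11 with age and 0.18 with the label, 33 of 37 lay above 0 in the latter, and Gnl3 (0.86, limma adjusted p = 0.0181), Npm1 (1.001, adjusted p = 0.0222) and Ncl (0.71, adjusted p = 0.0456) were called. That removal was chosen after seeing the data and also takes out any real difference that follows GC content or length.

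The libraries' sex offered another comparison, made within groups: 7 libraries were named male and 8 female. Male and female mean the sex in the library name throughout, and not a measured sex. In every group the males had the lower replicate numbers, so sex and a batch that followed the numbers cannot be told apart. With group as a covariate, 4 of 37 members (10.8%) were higher in females and 0 lower, beside 12.9% of all tested genes called, 9.67% higher and 3.27% lower. The members' share was near that background. The 4 were Ltv1, Wdr43, Tsr1 and Ddx21, of which the first 3 are small subunit factors. Without labelled knockout replicates 2 and 5, an alternative chosen after seeing the data, 7 were called, with Ebna1bp2, Heatr1 and Npm1 added. With sex alone in the fit, 3 were called, and Ddx21 was not (0.53, limma adjusted p = 0.0618).

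Ltv1 ran from 6.49 to 16.4 FPKM in males (median 10.86) and from 18.22 to 27.06 in females (median 19.79). Every female library was above every male one, which 0.996% of all tested genes showed in either direction. The log2 difference was 0.79 (SE 0.13, limma adjusted p = 0.00354). Wdr43 ran from 12.39 to 32.69 FPKM in males (median 15.3) and from 22 to 36.29 in females (median 28.54), with young control 1 the only male above 20 FPKM (0.66, SE 0.15, adjusted p = 0.0142). Tsr1, a GTPase-like factor of late small subunit maturation, ran from 6.12 to 11.61 in males and 8.41 to 15.95 in females (0.56, SE 0.14, adjusted p = 0.0183). Ddx21 ran from 4.15 to 12.04 and 8.16 to 12.32 (0.44, SE 0.14, adjusted p = 0.042).

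**Figure D5:**
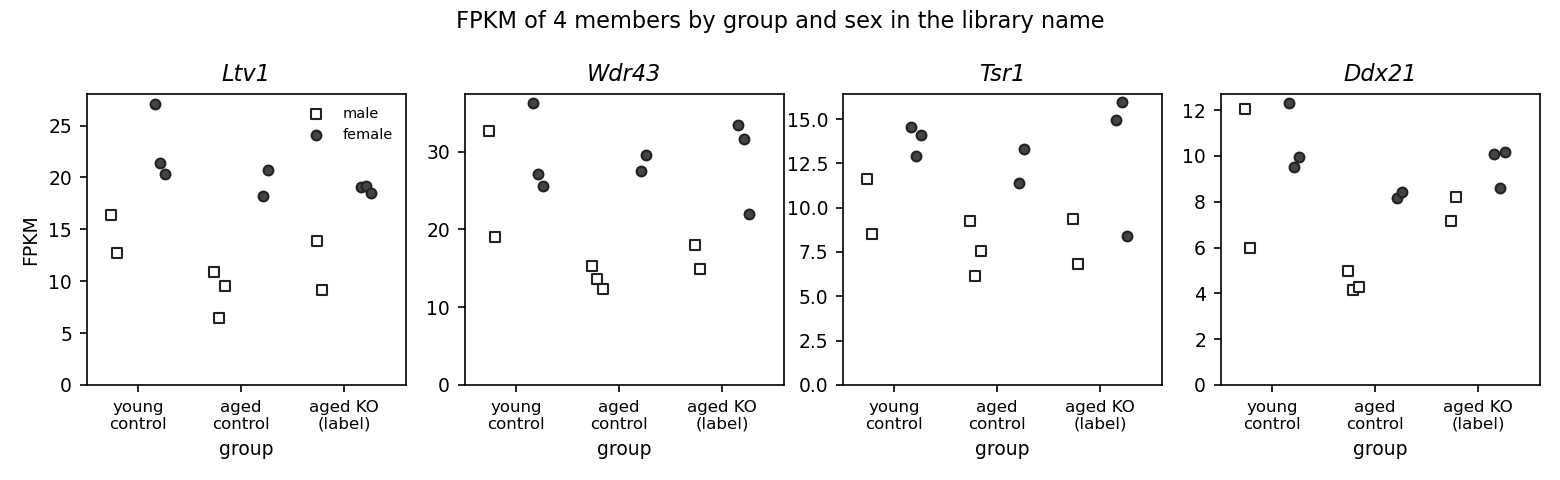
FPKM of the 4 members called higher in females, by group, with male libraries as open squares and female libraries as filled circles. For Ltv1 all females lie above all males, and for Tsr1 1 female labelled knockout library lies at 8.41 FPKM among the males.

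GC content moved with sex as well: the log2 level of high-GC relative to low-GC genes was -0.37 to -0.12 in females and -0.42 to 0.54 in males (median 0.40). With the GC and length trend removed, Ltv1 (0.60, limma adjusted p = 0.0154) and Wdr43 (0.36, adjusted p = 0.0455) stayed called, and Tsr1 and Ddx21 did not, while Nop2 (0.43, adjusted p = 0.0385) and Rrs1 (0.35, adjusted p = 0.0407) were called. Over all tested genes the calls then numbered 304 higher and 210 lower, against 1097 and 371 before. In the fit without that removal, 25 of 144 other pathway genes (17.4%, beside 9.67% of all tested genes) were higher in females and 1 was lower. Among the 25 were the large subunit factors Pum3 (0.59), Rsl1d1 (0.57), Rrp15 (0.42) and Pak1ip1 (0.33) and the small subunit factors Aatf (0.45), Utp18 (0.53), Wdr75 (0.53) and Nol10 (0.51). The exosome genes C1d (0.42), Exosc8 (0.36) and Exosc1 (0.33), the polymerase I factor gene Taf1a (0.67), the snoRNP assembly gene Nufip1 (0.37) and the snoRNA host gene Snhg17 (0.37) were higher as well, and the snoRNP assembly gene Pih1d1 (-0.41) was the lower one. Outside the pathway lists, the proliferation marker Pcna was higher in females (0.38, limma adjusted p = 0.0244) and Mxd3, of the Myc-Max network, was lower (-0.39, adjusted p = 0.0453).

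Promoter sequences from RefSeq (GRCm38.p6, 250 bases before to 50 after the start) were matched for 32 of the 37 members. The E-box CACGTG, the site that Myc-Max dimers bind, was found on either strand in 7 of them (21.9%), against 12.2% of tested genes with an entry. The ETS-type motif CCGGAAGT was found in 8 of the 32, against 811 of 8113 tested genes with an entry. The 7 with the E-box were Ltv1, Mybbp1a, Nop2, Pes1, Tsr1, Utp20 and Wdr43, so 3 of the 4 members called higher in females were among them, and Gnl3, Npm1 and Ncl were not. The E-box share among all genes called higher in females was not examined, so this overlap has no background. The 30 bases around the E-box of Ltv1, Tsr1 and Wdr43 are shown, 5′ to 3′ on the gene's strand, with the E-box in capitals.
Ltv1 (chr10:13193092-13193121, minus strand): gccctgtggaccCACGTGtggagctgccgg
Tsr1 (chr11:74898092-74898121, plus strand): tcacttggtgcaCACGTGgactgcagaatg
Wdr43 (chr17:71616220-71616249, plus strand): cgcccgggcgaaCACGTGgctgccgcggag
All 3 E-boxes lie after the annotated start, at bases 29, 25 and 18. A match in a window describes its letters only, and binding was not measured here.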

How the data were processed

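RNA from sorted HSCs (SMART-Seq v4, 2 ng of total RNA, per the labels' protocols) was sequenced in 15 libraries. The authors deposited 1 table of FPKM values per gene. FastQC 0.11.5, STAR, edgeR and GRCm38 (mm10) are named in the submitters' processing notes, while the sources used here give neither counting settings nor strand. Gene lengths, GC content and snoRNA genes came from GENCODE M21, and promoters from RefSeq.

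Groups came from the titles. All 15 libraries entered 1 limma fit (limma 3.58.1, R 4.3.3) with a mean trend on log2(FPKM + 1), so fold changes of low genes are understated. Tests covered genes whose mean reached 1 FPKM, two-sided, with Benjamini-Hochberg adjustment over all 11345 and a threshold of 0.05. Sex was tested with group as a covariate. Low FPKM values are whole multiples of what 1 read is worth, which gave depth and the reads for voom: 98.0% to 99.3% of values under 12 reads in genes of 251 to 500 bases came within 0.1 of a whole read. The fit was tested on simulated data. Differences within 1 sex have no test.

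The members and gene lists were chosen with earlier results of these data known. By rule, FPKM per library is given for called members and for the member of smallest p in each role group (Gnl3, Polr1b, Nop58, Nhp2, Ltv1 and Nop16), and from other lists the called genes among the 4 of smallest p are named, except 1 that is not reported here. Ncl, Npm1, Ddx21, Wdr43, Tsr1, Mybbp1a, Heatr1, Bop1, Rrp12, Nip7 and Myc were added after their values were seen. Alternatives were another pseudocount, other filters and scalings, voom, sex or replicate number as a term, 2 groups only, omission of libraries, grouping by the descriptions and removal of a GC and length trend (spline, 5 degrees of freedom).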

Additional observations from a re-analysis of the deposited data

Results flagged for a closer look

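Of 111 combinations of a member and a group of 5 libraries, 5 held a library far from the other 4 by Dixon's criterion, and chance alone gives about 1 in 20 groups. Nhp2 was lowest in aged control 4, at 116.98 FPKM against 160.15 to 181.45 in the other aged controls. In the same library Nip7 was lowest at 37.72 FPKM, against 43.88 to 46.55. Labelled knockout 5 was lowest for Gar1, at 29.99 FPKM against 43.09 to 47.18, and highest for Ebna1bp2, at 51.68 FPKM against 34.94 to 35.77. Bysl was lowest in young control 1, at 6.92 FPKM against 11.98 to 13.2. Labelled knockout 5 is also 1 of the 2 libraries with more rRNA reads, and the part of this in its values was not tested.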

How the results depend on the processing

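Utp20, with a mean of 1.67 FPKM, rests on the fewest reads per length of the members. Between labelled knockout libraries and aged controls, 1 member was called, and 0 without the filter, with a replicate block, with 2 groups only, without labelled knockout replicates 2 and 5, or grouped by the descriptions. It was 2 with sex as a covariate, 3 with the GC and length trend removed, 2 with that and the replicate block, and 0 to 2 when 1 library was left out. Gnl3 lost its call under 10 of 23 alternatives: its limma adjusted p was 0.0568 without the filter, 0.0522 with the replicate block and 0.0775 with 2 groups only, and over single omissions its log2 change was 0.77 to 0.97. With age the count was 0 to 1 over single omissions and 1 (Rrs1) with the replicate block and the trend removed. Between labelled knockout and young libraries it was 1 (Gnl3) with the trend removed, alone or with the replicate block. For sex, 4 were called, 7 without labelled knockout replicates 2 and 5, 3 with sex alone and 4 with the trend removed. Grouped by the descriptions, the members' medians were 0.1763 with age, -0.02419 between the aged groups and 0.202 against young controls. The sign turned for Polr1b (0.09636 without replicates 2 and 5 and 0.04827 by the descriptions), Nop58 (-0.1631) and Ltv1 with age (0.639), the last 2 by the descriptions. The cause was not tested.

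Over all tested genes, 501 were called with age, 176 between the aged groups, 185 against young controls and 1468 by sex. Over the alternatives these ran from 0 to 1011, 0 to 321, 15 to 676 and 514 to 2327. Removing the GC and length trend moved the higher and lower calls from 361 and 140 to 448 and 285 with age and from 41 and 135 to 109 and 212 between the aged groups. That removal, its combination with the block, and the omission of 2 libraries from the sex comparison were chosen after seeing the data. Same-numbered libraries did not deviate together throughout (correlations of -0.46 to 0.53, 6 of 15 over 0.1), so the numbers were not taken as pairs. Replicate 2 was an exception, with correlations of 0.49, 0.47 and 0.37 between the groups. Under the filter of 5 FPKM, 32 members were tested and Nop58 has no value.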
